A study of Mus musculus with 4 samples.

Results

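The glucocorticoid receptors and their response genes were followed through the hippocampal cells of mice with the Cyfip2+/R87C genotype, a model of an infantile epileptic encephalopathy (West syndrome). They are 10 genes of the 32285 in the count files, taken by symbol: the receptors Nr3c1 and Nr3c2, the receptor co-chaperone Fkbp5, and the hormone-induced genes Tsc22d3, Sgk1, Per1, Zbtb16, Cdkn1a, Pdk4 and Ddit4. Nuclei were isolated from both hippocampi of 2 wild-type (WT) mice and 2 littermates heterozygous for the R87C knock-in allele (KI), on the C57BL/6N background and at 28 postnatal weeks, and each mouse gave 1 library of the 10x 3' single-nucleus assay. The lights were on from 8 am to 8 pm and tissue was taken between 2 and 4 pm. The treatment label of KI replicate 2 reads R88C, whereas its genotype label reads KI and its protocol R87C, and it was kept as KI. All 4 libraries carry the same batch label.

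The hippocampus holds both corticosteroid receptors. Nr3c2 encodes the mineralocorticoid receptor, which binds corticosterone with high affinity and is known for its high level in hippocampal neurons. Nr3c1 encodes the glucocorticoid receptor, which has a lower affinity and is occupied mainly at the daily hormone peak and in stress. Both receptors wait in the cytoplasm in a complex with Hsp90 and its co-chaperones, move to the nucleus once they have bound hormone, and bind a palindromic DNA element near target genes. Fkbp5, itself a target, lowers the hormone affinity of the complex and so closes a short feedback loop. Corticosterone also follows the clock, and it feeds back on neuronal excitability, metabolism and the myelinating cells of the brain.

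Of the members, Sgk1, a serum- and glucocorticoid-induced kinase, carried the receptor element itself close to a start site, and its promoter is shown for that reason. The letters searched were AGAACA and TGTTCT with any 3 bases between them, a palindrome that reads the same on both strands, in RefSeq windows of 300 bases (250 before and 50 after a start site, GRCm38.p6). Of 32851 windows, 3 held it (0.00913%). Of 17 windows that belonged to 8 of the members, 1 held it, a window of Sgk1 on the plus strand at chr10:21993640-21993939, where the match began at -189 from the start site. Sgk1 had more windows than any other member. Either arm of the palindrome alone (AGAACA or TGTTCT) stood in 4 of the 17 windows and in 19% of all windows. Windows for Nr3c1 and Zbtb16 were not used here. The full element is in capitals. A further TGTTCT arm near the 5′ end of the window is left in lower case.

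Sgk1 promoter: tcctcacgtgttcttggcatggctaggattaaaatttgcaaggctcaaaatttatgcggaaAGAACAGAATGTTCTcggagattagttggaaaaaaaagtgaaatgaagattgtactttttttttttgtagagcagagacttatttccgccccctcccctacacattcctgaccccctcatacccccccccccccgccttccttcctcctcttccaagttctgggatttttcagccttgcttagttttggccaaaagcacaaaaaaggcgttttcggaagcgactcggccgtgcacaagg

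The members differ in size and place. In the GENCODE M21 annotation of GRCm38, Nr3c2 spans 345.6 kb at chr8:76899442-77245012 on the plus strand and Gm10649 overlaps it on the opposite strand. Fkbp5 spans 118.4 kb at chr17:28399094-28517527 on the minus strand and is overlapped by AC154912.5 on the same strand and AC154912.1 on the opposite strand, so reads in the shared stretches are uncertain. Zbtb16 lies at chr9:48654297-48836222, Sgk1 at chr10:21882184-21999903, Tsc22d3 at chrX:140539528-140600659, Per1 at chr11:69095217-69109960, Cdkn1a at chr17:29090976-29100727, Pdk4 at chr6:5483351-5496309 and Ddit4 at chr10:59949669-59951834. Spans run from 2.17 kb for Ddit4 upward, so levels are compared below within a gene and not between genes.

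The 4 libraries held 12665 to 16055 barcodes and 73009975 to 80913580 unique molecular identifiers (UMIs), and 55295 of 55640 barcodes had at least 500 genes and at most 5% mitochondrial UMIs. Standard marker lists placed 36075 nuclei (65.2%) in classes, of which 12 had at least 20 nuclei in every library. Nuclei with markers of a second class (9261) were left out. The class names stand for nuclei that resemble those cells: 95.83% of dentate gyrus (DG) granule nuclei, 91.26% of oligodendrocytes and 66.87% of CA1 nuclei also lay in a cluster of that name, while no cluster was named for the mural cells or fibroblasts. The share was 59.48% for subicular or cortical excitatory nuclei and 77.43% for CA3, of which 10.72% lay in a cluster of another name. The DG class held 3128 and 2376 nuclei in the WT mice and 1537 and 1635 in the KI mice, which was 19.6% and 18.1% against 12.2% and 12.0% of all nuclei. Malat1, a nuclear long noncoding RNA, took 8.89% and 8.71% of the UMIs of the WT libraries and 13.7% and 12.1% of the KI libraries, with no overlap between the genotypes. Cyfip2 itself stood at 181.1 and 179.3 CPM (counts scaled to 1000000 UMIs in all) in WT and 173.3 and 170.2 CPM in KI, and the files do not separate its alleles. Library pairs shared 39 to 66 barcodes.

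Across the 12 tested cell classes, to which the order of levels below is limited, the receptors were spread differently. Nr3c2 was highest in DG, CA1 and CA3 neurons, and Nr3c1 in microglia, oligodendrocytes and astrocytes. Inhibitory neurons were low for both. The mineralocorticoid receptor Nr3c2 stood at 930.6 ± 128 CPM in CA3 (SD over 4 libraries of both genotypes, as in the values that follow), 896.1 ± 453 CPM in DG granule neurons and 786 ± 196 CPM in CA1, and at 300.6 ± 69.1 CPM in oligodendrocytes, the lowest class. In the WT mice alone DG (1234 and 1338 CPM) stood above CA3 (1024 and 1040 CPM). Against the mean of the other classes on a log2 scale it was higher in CA3 (1.31, SE 0.10, adjusted p = 1.05e-14), in DG (1.07, SE 0.11, adjusted p = 1.02e-11) and in CA1 (1.003, SE 0.11, adjusted p = 8.65e-11). It was lower in oligodendrocytes, Cajal-Retzius cells, oligodendrocyte precursors, subicular or cortical excitatory neurons and inhibitory neurons, by 0.30 to 0.78 on the log2 scale. Of these, the contrast of inhibitory neurons (-0.30) held in 4 of 10 alternatives (largest adjusted p = 0.379), and those of the precursors and the subicular or cortical nuclei in 8 of 10 each. In CA2, which had too few nuclei for a test, Nr3c2 read 1782 and 1339 CPM in the WT mice and 986 and 852.9 CPM in the KI mice.

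The glucocorticoid receptor Nr3c1 stood at 142.9 ± 48.7 CPM in microglia, 134.9 ± 29.95 CPM in oligodendrocytes and 131.7 ± 12.8 CPM in astrocytes. At the other end were inhibitory neurons with 45.1 ± 8.24 CPM and CA3 with 34.0 ± 8.16 CPM. The 3 glial classes were each above the other classes (0.74 in oligodendrocytes, 0.69 in astrocytes and 0.66 in microglia, SE 0.11 to 0.13), and CA3 was the lowest (-1.16, SE 0.12, adjusted p = 3.68e-11). Subicular or cortical excitatory nuclei were above the mean of the other classes (0.44, SE 0.11, adjusted p = 0.00121), and the lower level of DG (-0.31, adjusted p = 0.024) held in 6 of 10 alternatives. CPM measures a share of a nucleus's RNA. Oligodendrocytes had a median of 1446 to 1535 UMIs per nucleus in the 4 libraries and DG nuclei 4041 to 4611, so that a like share means fewer molecules in oligodendrocytes.

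**Figure D1:**
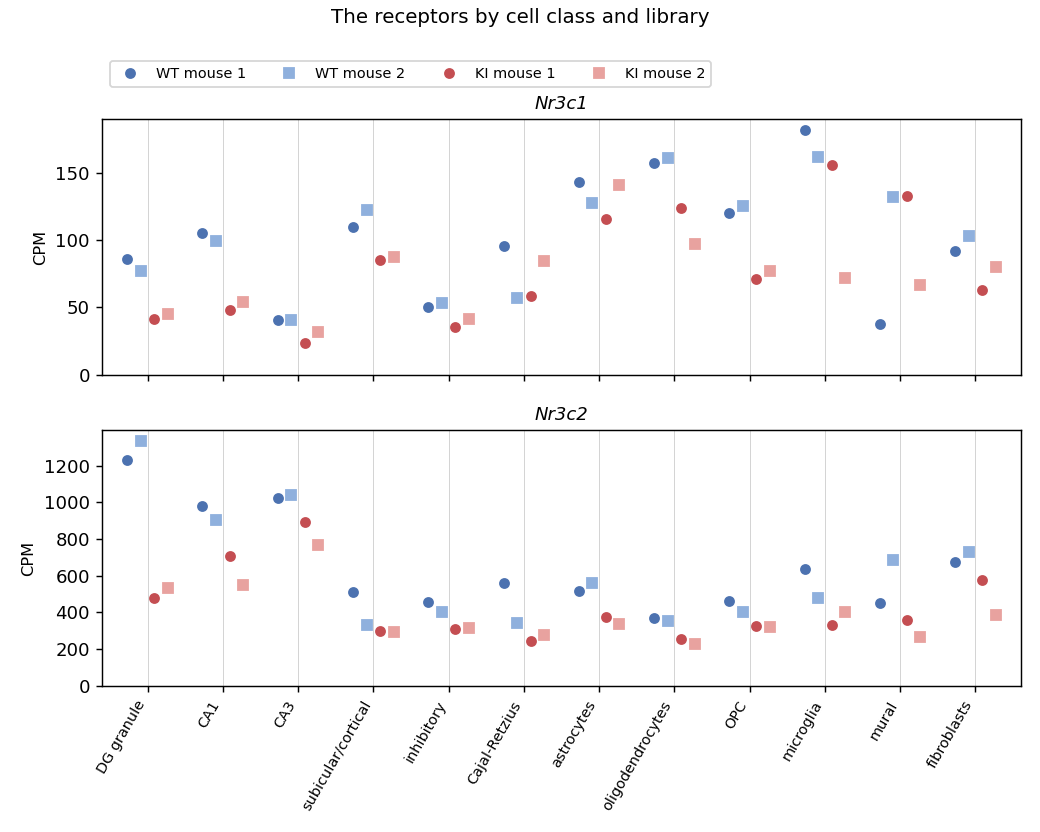
Level of Nr3c1 and Nr3c2 in CPM (y axis) in 12 cell classes (x axis), 1 point per mouse, WT in blue and KI in red. Nr3c2 is highest in DG, CA1 and CA3 of the WT mice, between 906.9 and 1338 CPM, and both KI points lie under both WT points in every class.

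Each of the response genes was highest in a glial class, most of them in oligodendrocytes. Not every glial class was high, since Sgk1 was lower in astrocytes (-0.87) and Zbtb16 in microglia (-0.42, held in 4 of 10 alternatives). In oligodendrocyte precursors 1 member was higher, Sgk1. Of 120 contrasts of a class with the others over the 10 genes, 28 were higher and 33 lower, against 18.6% and 11.4% of all gene-by-class contrasts, and 5 of them, all for Pdk4 in neuronal classes, had no usable standard error. In oligodendrocytes 9 of the 10 genes were higher and Nr3c2 was lower, where 30.8% of all genes were higher. In astrocytes 6 were higher (26.8% of all genes) and in microglia also 6 (17.5%), of which Per1 held in 6 of 10 alternatives and Pdk4 and Ddit4 in 9 each. With classes taken from clusters, Pdk4 in microglia turned to -0.65 (adjusted p = 0.717). Of the neuronal contrasts, those higher were Nr3c2 in 3 classes, Sgk1 in CA3 and Nr3c1 in the subicular or cortical nuclei.

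Fkbp5 was led by microglia, at 555.8 ± 164 CPM (433.9 and 454.2 in WT, 791.9 and 543.4 in KI), with no library of the next class as high as the lowest of these. It stood 2.05 above the other classes on the log2 scale (SE 0.13, adjusted p = 2.49e-18). Oligodendrocytes and fibroblasts were also above the rest, and inhibitory neurons were lowest with 55.5 ± 15.2 CPM.

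Tsc22d3, which encodes the anti-inflammatory leucine zipper protein GILZ and was an astrocyte-led gene here, stood at 216.6 ± 51.9 CPM in astrocytes, 109.2 ± 44.1 CPM in oligodendrocytes and 63.0 ± 8.36 CPM in microglia. In the 5 neuronal classes with the most nuclei it lay between 3.93 CPM (CA1) and 6.10 CPM (inhibitory neurons), each lower than the other classes, while astrocytes were 4.04 higher on the log2 scale (SE 0.13, adjusted p = 2.11e-30).

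Sgk1 was highest in oligodendrocytes, at 561.4 ± 295 CPM, and no other tested class reached the lowest of those 4 libraries (382.5 CPM). In the endothelial nuclei, too few for a test, KI replicate 1 read 489.7 CPM. Oligodendrocyte precursors and CA3 followed with 203.3 ± 30.7 and 194.3 ± 16.4 CPM, both above the other classes. DG granule neurons were lowest with 80.1 ± 28.7 CPM. Zbtb16, a zinc finger repressor, was likewise highest in oligodendrocytes (429 ± 91.7 CPM), but its other 11 classes lay in a narrow band between 173.7 and 247.8 CPM.

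The genes of growth arrest and energy use had little signal in neurons. Pdk4, the kinase that shuts off pyruvate dehydrogenase, stood at 26.1 ± 11.01 CPM in oligodendrocytes and 23.5 ± 2.44 CPM in astrocytes, and at no more than 0.48 CPM in the excitatory and inhibitory classes, where 3 to 18 UMIs were counted in all. Fibroblasts had 0 Pdk4 UMIs in 171 nuclei. Ddit4, an inhibitor of mTORC1 signalling, averaged 67.3 ± 49.2 CPM in oligodendrocytes and 4.28 to 7.33 CPM in the same neurons. Cdkn1a, the cell cycle inhibitor p21, averaged 43.4 ± 38.1 CPM in oligodendrocytes against 1.31 ± 0.37 CPM in CA3. Per1, a core clock gene with a glucocorticoid element, was highest in astrocytes (66.1 ± 51.4 CPM) and oligodendrocytes (58.2 ± 49.5 CPM) and lowest in DG (15.6 ± 9.55 CPM).

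Between neighbours in the order of classes, the ranges of the 4 libraries overlapped for most steps. The exceptions were microglia over the next class for Fkbp5, oligodendrocytes over the next class for Sgk1 and Zbtb16, oligodendrocyte precursors over inhibitory neurons for Tsc22d3, astrocytes over microglia for Pdk4 and DG over inhibitory neurons for Ddit4. Mural cells and fibroblasts had 104 and 171 nuclei and carry the least weight.

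**Figure D2:**
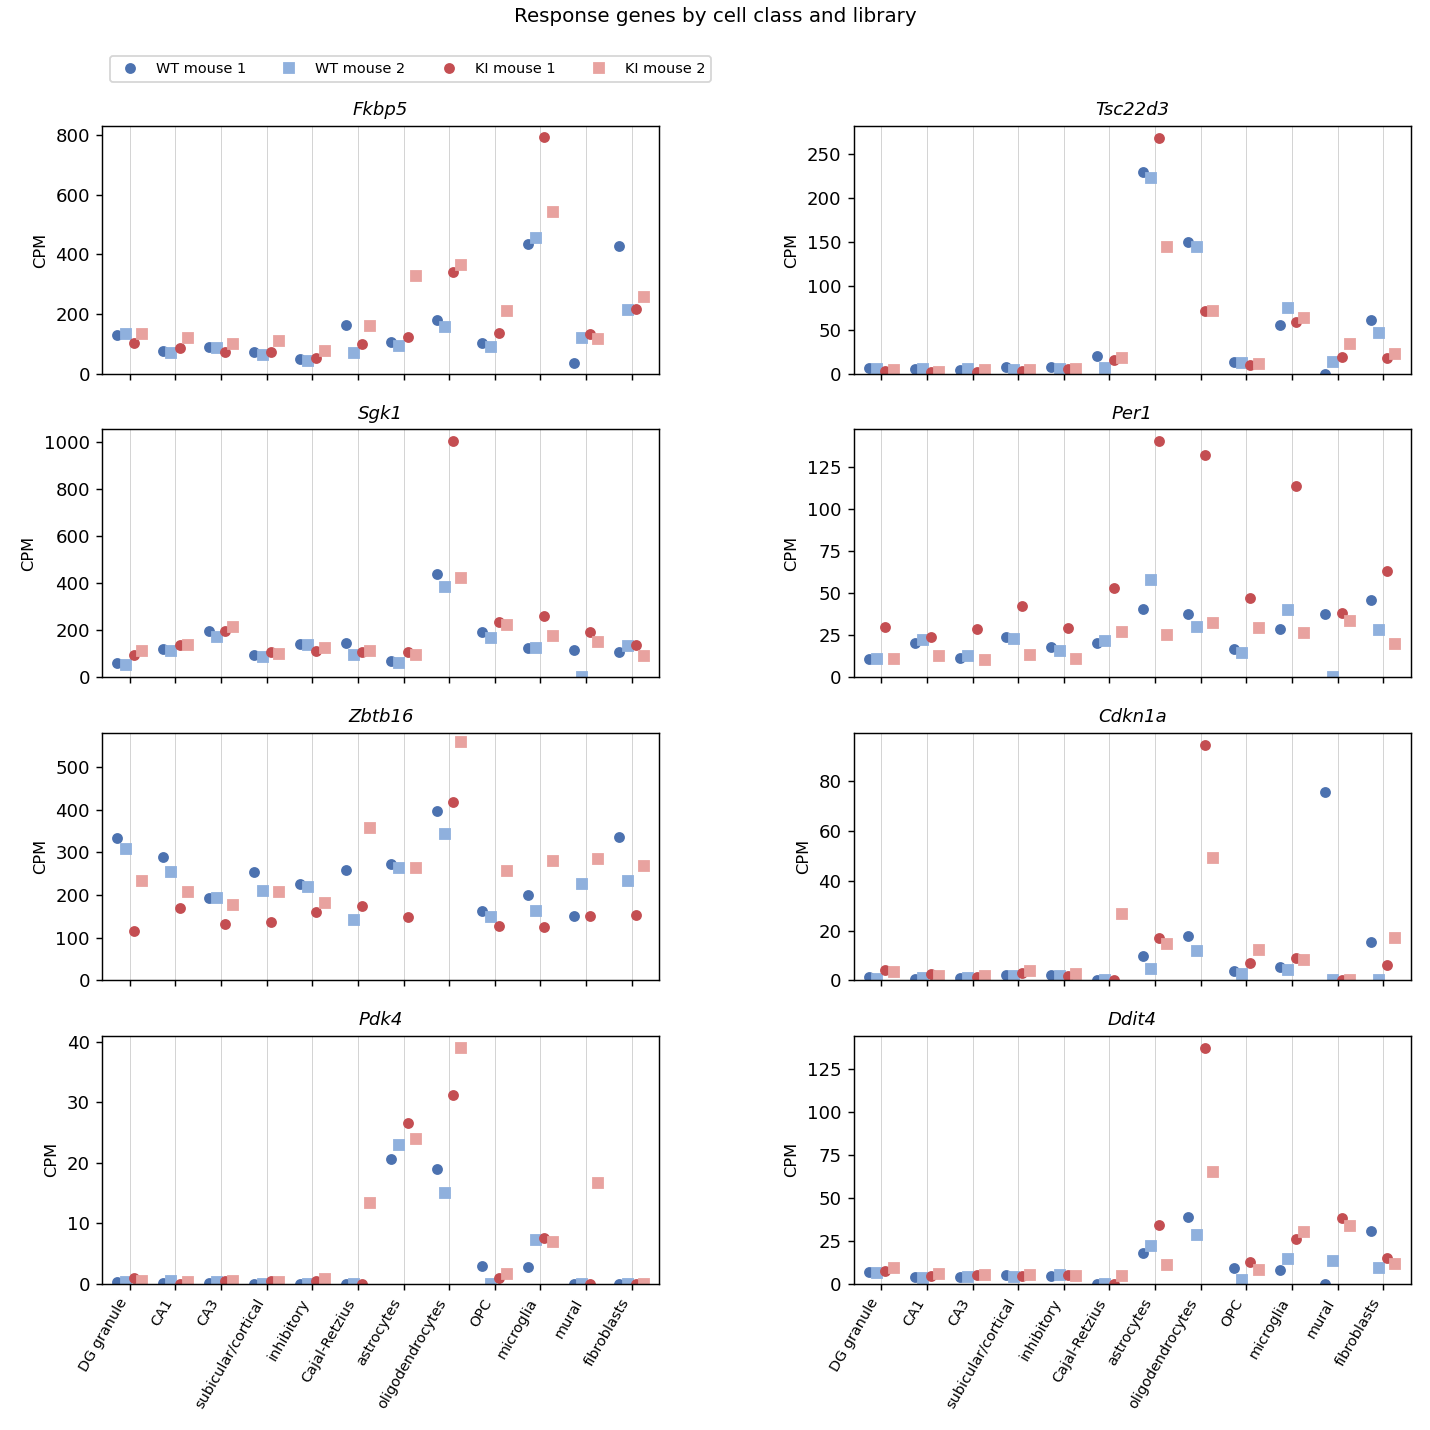
Level of the 8 response genes in CPM (y axis, each panel with its own scale) in 12 cell classes (x axis), 1 point per mouse, WT in blue and KI in red. Tsc22d3 peaks in astrocytes, Fkbp5 in microglia and most others in oligodendrocytes, where KI mouse 1 stands high for Sgk1 (1003 CPM), Per1 (132.3 CPM), Cdkn1a (94.8 CPM) and Ddit4 (137.3 CPM).

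The comparison of KI with WT asks whether the members' levels differ with the knock-in allele. In DG granule neurons both receptors fell while Sgk1 and Cdkn1a rose, and in CA1 Nr3c1 fell. These were the 5 calls among 94 gene-by-class fits (adjusted p under 0.05, edgeR's quasi-likelihood test on counts summed per mouse). The fits covered 12 classes, and the calls came from DG and CA1. In DG 4 of 9 tested members were called, where 10.1% of all 15617 tested genes were called (5.09% higher and 5.03% lower). In CA1 it was 1 of 9, where 2.47% of genes were called. With 2 mice a group, p-values rest on the spread within these pairs and on spread that edgeR shares across genes.

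Nr3c2 showed the largest fall in DG. The WT mice read 1234 and 1338 CPM and the KI mice 477.5 and 534.6 CPM, so the groups stood far apart. The log2 change was -1.21 (SE 0.09, adjusted p = 0.00124), and it passed the threshold in 14 of 14 alternatives. Of the DG nuclei, 93.8% and 95.7% in WT had at least 1 Nr3c2 UMI, against 79.6% and 77.3% in KI. With each nucleus thinned to 1000 UMIs the shares were 64.6% and 68.2% against 35.1% and 35.4%. In oligodendrocytes, the class lowest in Nr3c2, the thinned shares were 27.98% and 22.9% in WT and 20.7% and 14.5% in KI.

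Nr3c1 in DG read 85.9 and 76.9 CPM for the WT mice and 41.2 and 45.4 CPM for the KI mice. The change was -0.78 (SE 0.12, adjusted p = 0.0103), with no overlap, but without WT replicate 1 it lost its call (-0.69, adjusted p = 0.112). In CA1, Nr3c1 read 105.5 and 99.3 CPM in the WT pair against 47.9 and 54.2 in the KI pair. This change of -0.95 (SE 0.11, adjusted p = 0.0176) kept its size but not its call without WT replicate 1 (-0.90, adjusted p = 0.242), without WT replicate 2 (-1.01, adjusted p = 0.133) or with no filter on low counts (-0.97, adjusted p = 0.0974). In the same CA1 nuclei Malat1 read 90600 and 90090 CPM in the WT pair against 141800 and 121100 CPM, the fibroblast markers 49.7 and 57.9 against 76.8 and 80.4 CPM, and the astrocyte markers 95.03 and 108.5 against 69.6 and 88.6 CPM. Lower in both KI mice were also the markers of committed oligodendrocyte precursors (53.5 and 49.6 against 36.2 and 39.5 CPM) and microglia (116.9 and 121.3 against 100.8 and 109.4 CPM), and higher those of mural cells (7.95 and 7.77 against 10.4 and 12.4 CPM) and endothelial cells (7.46 and 7.69 against 9.74 and 10.1 CPM). Their part in the CA1 change was not tested.

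Sgk1 rose in DG, the class where it was lowest. The levels were 61.0 and 51.3 CPM in WT but 95.9 and 112.1 CPM in KI, a change of 1.02 (SE 0.13, adjusted p = 0.00559) that passed in 14 of 14 alternatives. The promoter with the full receptor element belongs to this gene, and the part of the element in the rise was not tested. Cdkn1a rose in DG from a very low base. Its UMIs were 22 and 8 in WT and 32 and 28 in KI, in fewer KI nuclei, or 1.57 and 0.69 CPM against 4.16 and 3.58 CPM. The change of 1.87 (SE 0.43, adjusted p = 0.0377) was not called without WT replicate 2 (1.42, adjusted p = 0.26) or when the classes came from clusters (1.65, adjusted p = 0.0561). Over the 5 larger neuronal classes Cdkn1a gave 0.34 to 1.36 UMIs per 100 nuclei in WT and 1.12 to 2.38 in KI, and these ranges overlapped. In oligodendrocytes it gave 3.05 and 2.12 against 17.3 and 12.2 UMIs per 100 nuclei.

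**Figure D3:**
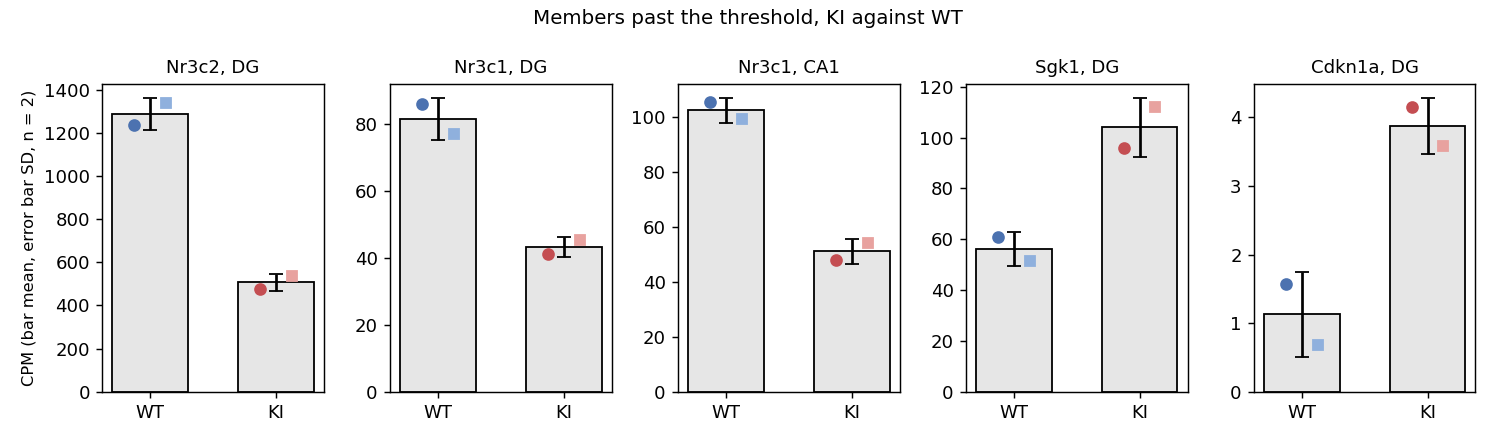
Level in CPM (y axis from 0) of the 5 gene-and-class pairs called in KI against WT. Points are the mice, bars the mean and error bars the SD (n = 2). Nr3c2 and Nr3c1 are lower in the KI mice and Sgk1 and Cdkn1a higher, with no overlap of the groups in any panel.

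Other values moved with genotype in the same DG nuclei. Malat1 read 82790 and 83150 CPM for the WT mice and 168100 and 139100 CPM for the KI mice. The summed astrocyte markers (10 genes) read 948.9 and 930.4 CPM in the WT pair against 417.4 and 622.2 in the KI pair, while the 8 DG markers read 4487 and 4106 against 3773 and 4136 CPM, and the 10 oligodendrocyte markers 684.8 and 493.9 against 639.5 and 728.6 CPM. Lower in both KI mice were also the markers of inhibitory neurons (1735 and 1648 against 1382 and 1252 CPM), of CA2 (185.9 and 185.6 against 69.5 and 112.1 CPM), of mossy cells (64.5 and 70.8 against 36.3 and 43.2 CPM) of microglia (176.3 and 177.9 against 141.8 and 159.3 CPM) and those shared by the excitatory classes (261.5 and 288.4 against 184.7 and 251.9 CPM). Higher in both KI mice were the markers of CA3 (703.8 and 696.8 against 784.7 and 749.9 CPM), of CA1 (492.3 and 490.7 against 526 and 584.8 CPM) and, at low levels, of committed oligodendrocyte precursors (46.6 and 44.5 against 48.9 and 54.7 CPM), Cajal-Retzius cells (17.8 and 18.1 against 19.0 and 31.2 CPM) and endothelial cells (6.55 and 8.15 against 9.88 and 8.95 CPM). The part of these values in the DG changes was not tested.

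The fall of Nr3c2 was called in DG, but its direction was the same elsewhere. Both KI mice were below both WT mice in all 12 classes, a pattern that 14 of 14951 genes showed (0.0936%). The classes are cut from the same 4 libraries and are not independent. Nuclei of the glial classes also held RNA of neuronal markers. In oligodendrocytes the 8 DG markers read 2411, 2467, 2217 and 1635 CPM (the WT mice, then the KI mice). In astrocytes they read 1655, 1666, 1280 and 1276 CPM. The 3 markers of all neurons, in the same order of mice, read 1445, 1467, 1406 and 2284 CPM in oligodendrocytes. In DG they read 3897, 3770, 3617 and 4189 CPM. The part of such RNA in the fall of Nr3c2 outside DG was not tested. The log2 changes ran from -0.24 in CA3 to -1.21 in DG. In CA1 Nr3c2 read 981.9 and 906.9 CPM against 705.2 and 550.2 CPM (-0.52, adjusted p = 0.132). Nr3c1 was lower in both KI mice in 9 of 12 classes and higher in none, and 3.93% of genes were lower in at least 9. In astrocytes, Nr3c1 read 143 and 127.6 CPM in WT but 115.5 and 140.8 CPM in KI, a change of -0.02 with overlap.

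In oligodendrocytes the responses were wide but none of the 10 genes was called by edgeR, where 0.0378% of all genes were (5 of 13216). DESeq2, run as an alternative, called 3 of them higher in KI, Fkbp5 (adjusted p = 0.00598), Cdkn1a (adjusted p = 2.72e-05) and Ddit4 (adjusted p = 0.00858), where it called 0.484% of all genes. At an unadjusted p under 0.05 there were 7 of 10, against 11.4% of genes, and the median log2 change of the members was 0.98. Fkbp5 read 179.6 and 156 CPM for the WT mice and 342.1 and 363.9 CPM for the KI mice (1.14, adjusted p = 0.125). Tsc22d3 went the other way, with 149.9 and 144.8 CPM against 71.1 and 71.1 CPM (-0.98, adjusted p = 0.14). Neither gene had overlap between the groups.

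The arrest and metabolic genes of oligodendrocytes were also apart, without a call in the edgeR fit as planned. Cdkn1a read 17.8 and 11.7 CPM in the WT pair against 94.8 and 49.4 in the KI pair (2.35, adjusted p = 0.135), and it passed in 9 of 14 alternatives. Ddit4 read 38.7 and 28.2 CPM against 137.3 and 65.0 CPM (1.68, adjusted p = 0.218), and it passed in 8 of 14. Pdk4 read 19.0 and 15.1 CPM against 31.2 and 39.0 CPM (1.08, adjusted p = 0.216), with 3 of 14 passing. The 14 include blocks by replicate number, which no label backs, and fits with a mouse left out. Of the 10 members, 5 had both KI mice above both WT mice in this class (17.9% of all genes), these 3 with Fkbp5 and Zbtb16, and 3 had both below (26.0% of all genes), the receptors and Tsc22d3. Sgk1 read 438.5 and 382.5 CPM in WT but 1003 and 422 CPM in KI. Its change of 0.88 (adjusted p = 0.445) came with KI replicate 1 above both WT mice and KI replicate 2 between them. Over the alternatives this change ran from 0.07 to 1.38. The 10 summed oligodendrocyte markers of this class read 12470, 12110, 13370 and 8787 CPM in the 2 WT and then the 2 KI mice. The markers of astrocytes (374 and 361.2 against 255.8 and 287.7 CPM), CA2 (136.7 and 106.5 against 61.2 and 71.9 CPM), DG (2411 and 2467 against 2217 and 1635 CPM) and CA1 (2318 and 2383 against 2092 and 1435 CPM) were lower in both KI mice in the oligodendrocyte nuclei, as were those of inhibitory neurons (1611 and 1536 against 1328 and 1496 CPM). Higher in both KI mice were those of microglia (245.4 and 213.4 against 271.6 and 263.9 CPM), Cajal-Retzius cells (58.0 and 40.8 against 62.9 and 83.6 CPM) and endothelial cells (11.98 and 10.7 against 13.2 and 12.1 CPM). So were those of oligodendrocyte precursors (258.6 and 230.4 against 262.2 and 394.3 CPM) and Malat1 (114900 and 118500 against 153000 and 131500 CPM). KI replicate 2 also stood apart for the markers of all neurons (2284 CPM against 1445, 1467 and 1406 CPM) and of subicular or cortical neurons (452.3 CPM against 196.8 to 264.4 CPM). It was lowest for those of committed oligodendrocyte precursors (105.7 CPM against 170.6 to 197.7 CPM). Their part in the oligodendrocyte values was not tested.

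CA1 held 7 of 9 members at an unadjusted p under 0.05, where 22.1% of genes were, and DG 6 of 9, where 28.2% were. Beside Nr3c1, the CA1 values nearest to the threshold were Tsc22d3 at 5.41 and 5.67 CPM against 2.36 and 2.27 CPM (-1.19, adjusted p = 0.0682), Zbtb16 (-0.48, adjusted p = 0.0871) and Fkbp5 (0.54, adjusted p = 0.0893). Over the whole set of classes, Fkbp5 and Sgk1 were higher in both KI mice in 7 of 12 classes and Cdkn1a in 8, where 5.34% of genes were higher in at least 7. In 1 class, inhibitory neurons, Sgk1 was lower in both KI mice (138.9 and 137.3 against 110.2 and 124.4 CPM). Pdk4 and Ddit4 were higher in 6, where 8.68% of genes were higher in at least 6. Some of these classes held few UMIs in all. For Pdk4 they were 18 in DG, 14 in CA3, 9 in inhibitory neurons and 3 in subicular or cortical nuclei. In mural cells they were 5 for Ddit4 and 22 for Sgk1. Tsc22d3 and Zbtb16 were each lower in both KI mice in 5 classes and higher in 1. This was near the background, since 29.1% of genes were lower in at least 5.

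Summed over all nuclei, no member was called by edgeR (0.771% of 21921 genes were), and 8 of 10 had an unadjusted p under 0.05, against 24.5% of genes. DESeq2 called 7 of them, among which were both receptors, and 8.57% of all genes. Nr3c1 read 87.4 and 88.9 CPM in WT but 54.8 and 57.8 CPM in KI (-0.59, adjusted p = 0.0507). Nr3c2 read 905 and 843.4 CPM against 539.1 and 456.8 CPM (-0.76, adjusted p = 0.0583). Cdkn1a had the largest change there (1.83, adjusted p = 0.0678). In such sums, fewer nuclei of a class, such as the fewer DG nuclei of the KI mice, cannot be told apart from less RNA per nucleus.

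**Figure D4:**
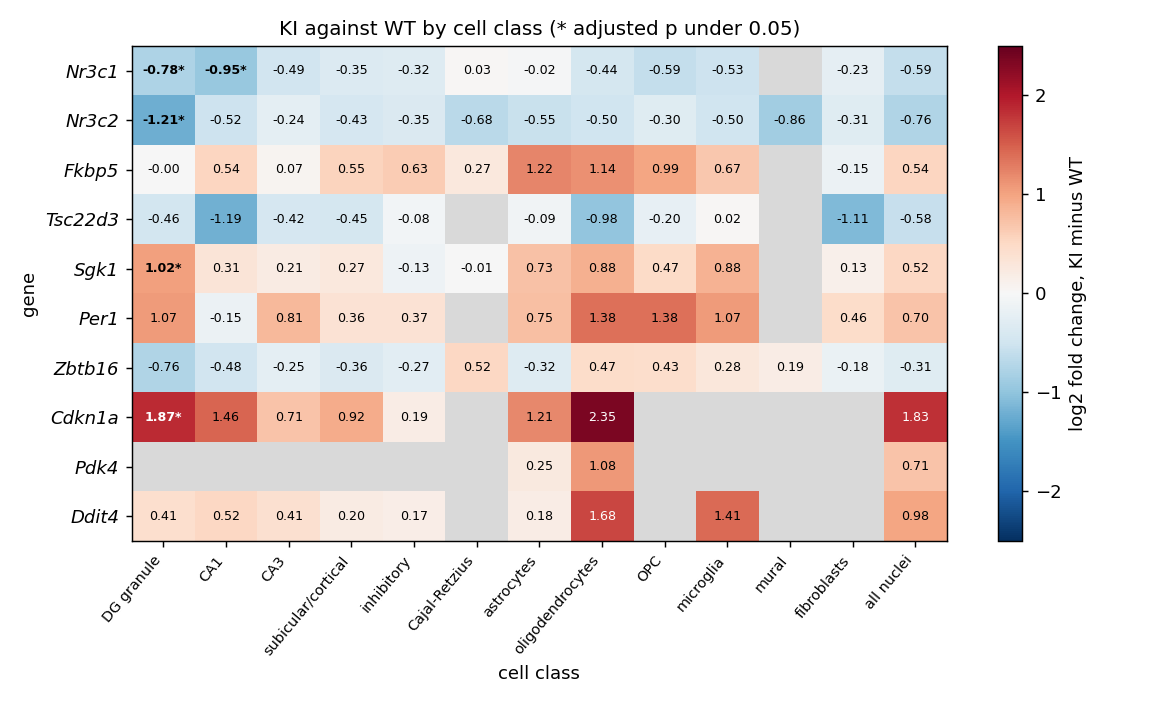
Log2 change of each member (rows), KI minus WT, in the 12 classes and in all nuclei (columns). Red is higher and blue lower in KI, grey was not tested for low counts, and an asterisk marks an adjusted p under 0.05, which 5 cells of the 12 classes have. Nr3c2 is blue throughout, from -0.24 in CA3 to -1.21 in DG.

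The change with genotype differed between classes for some members. This was tested as the difference of the KI changes of a pair of classes. Between DG and CA1, 4 of 9 members differed, where 7.68% of all genes did. Nr3c2 fell more in DG (difference -0.66, SE 0.17, adjusted p = 0.0384), and Sgk1 rose more in DG (0.72, SE 0.12, adjusted p = 0.00467). Fkbp5 was lower in DG than in CA1 in this sense (-0.53, SE 0.11, adjusted p = 0.0125), since DG showed a change of 0.00 with 129.1 and 133.2 CPM for the WT mice and 104.4 and 134.8 CPM for the KI mice. Nr3c1, called in both classes, did not pass this test (0.18, SE 0.10, adjusted p = 0.358).

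Per1 gave the largest difference between DG and CA1 (1.20, SE 0.19, adjusted p = 0.00371), and it was the difference that held in all 6 alternatives, while the other 7 calls given here were lost when either WT mouse was left out. In DG, Per1 read 10.6 and 10.9 CPM in the WT pair against 29.9 and 10.9 in the KI pair. In CA1 it read 20.6 and 21.8 CPM against 23.8 and 12.5 CPM. In DG KI replicate 1 stood apart while KI replicate 2 sat on the WT mice, and in CA1 KI replicate 2 was the lowest. Between CA1 and CA3 (0.876% of genes), Per1 (-0.91, SE 0.18, adjusted p = 0.0379) and Fkbp5 (0.47, SE 0.09, adjusted p = 0.0325) differed. Between DG and oligodendrocytes (0.744% of genes), Fkbp5 (-1.14, SE 0.19, adjusted p = 0.0402) and Zbtb16 (-1.27, SE 0.23, adjusted p = 0.0476) differed. None differed between oligodendrocytes and astrocytes by edgeR, where 0.0% of 13493 genes did. There, 1085 genes and 5 members had an unadjusted p under 0.05 (Tsc22d3, Zbtb16, Cdkn1a, Pdk4 and Ddit4).

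The 2 KI mice were not alike for Per1, Zbtb16 and Fkbp5, nor for Sgk1 in oligodendrocytes. Per1 was highest in KI replicate 1 in all 12 classes, which 27 of 14951 genes were (0.181%), and KI replicate 2 was the lowest library in 7 of them, where 4.62% of genes were lowest in at least 7. In astrocytes, Per1 read 140.5 CPM in KI replicate 1 and 25.2 CPM in KI replicate 2, on either side of 40.5 and 58.0 CPM in WT. In microglia it read 113.8 and 26.2 CPM in the KI mice and 28.9 and 40.1 CPM in WT.

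Zbtb16 split the other way. KI replicate 1 was the lowest library in 9 of 12 classes (8.77% of genes in at least 9) and KI replicate 2 the highest in 5 (17.1% of genes in at least 5). In microglia the KI mice read 124.4 and 280 CPM around 199.7 and 163.3 CPM in WT, and in DG they read 115.8 and 231.9 CPM under 333.3 and 307.5 CPM. Fkbp5 was highest in KI replicate 2 in 8 classes (2.7% of genes in at least 8), among them astrocytes with 328 CPM against 123.3 CPM in KI replicate 1 and 107.8 and 93.1 CPM in WT. Sgk1 was highest in KI replicate 1 in 8 classes (7.81% of genes in at least 8). The hour of collection of each mouse within the window is not given in the sources used here, and its part was not tested.

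**Figure D5:**
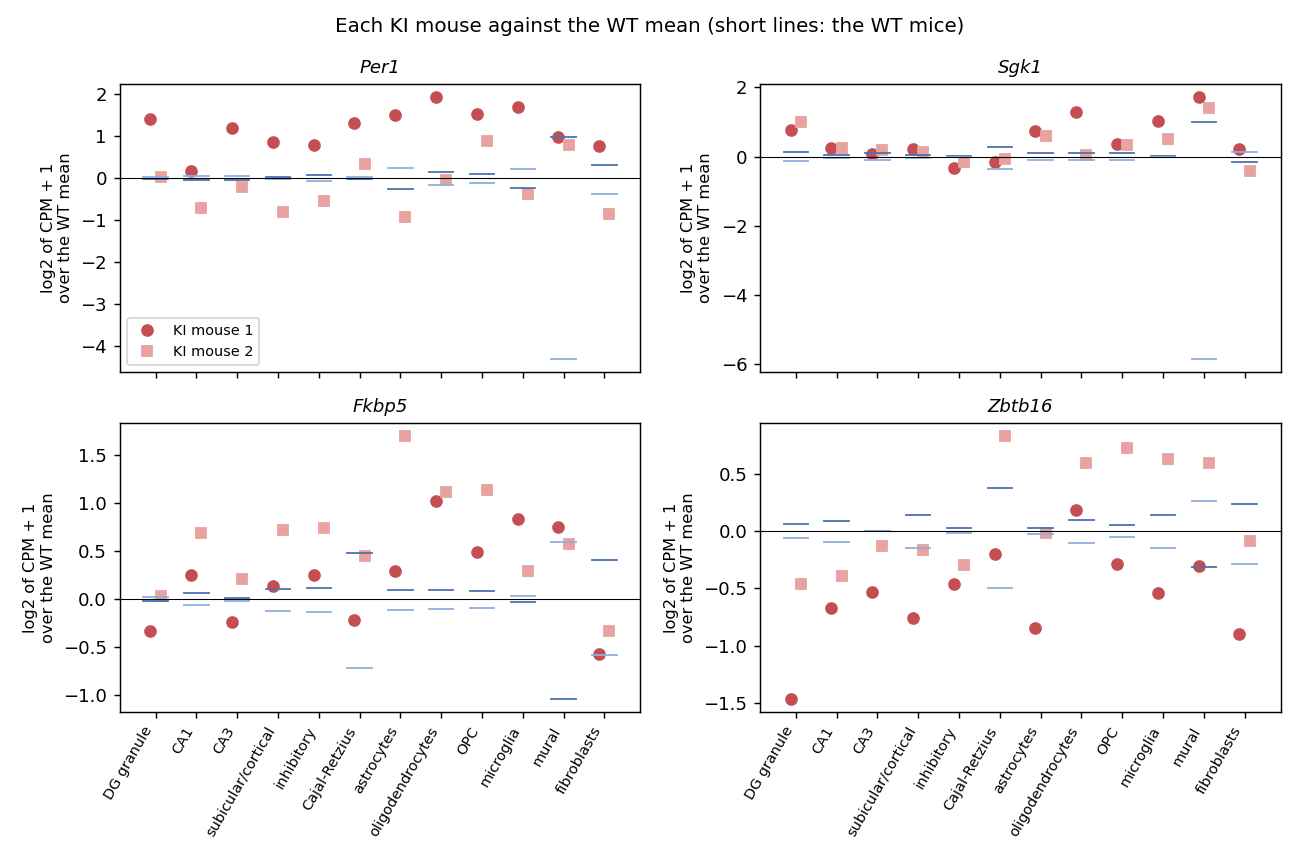
Log2 of CPM + 1 of each KI mouse over the WT mean (y axis) for Per1, Sgk1, Fkbp5 and Zbtb16 in 12 classes (x axis), with short lines for the WT mice. KI mouse 1 is the highest library for Per1 in all 12 classes, and for Zbtb16 KI mouse 2 lies above KI mouse 1 in every class drawn.

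The other genes of the pathway were counted from lists. Of the 12 receptor partners and hormone-metabolising enzymes, 11 were tested in DG and 2 fell, the co-chaperone Stip1 (33.6 and 31.6 CPM in WT, 18.9 and 17.4 CPM in KI, -0.71, adjusted p = 0.0273) and the corepressor Nrip1 (57.7 and 56.4 CPM against 28.6 and 37.0 CPM, -0.67, adjusted p = 0.0273). None rose, and 5.03% of all genes tested in DG were lower. The list's median change was -0.33 in DG and -0.33 in CA1, beside a median of all genes near 0 in both. In CA1 none of its 11 tested genes was called.

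Of 28 further glucocorticoid-induced genes, 25 were tested in DG and 2 were called, in opposite directions, a share no larger than the 10.1% of all genes. Sesn1, an inhibitor of mTORC1, rose from 118.3 and 120.2 CPM to 181.4 and 192.7 CPM (0.78, adjusted p = 0.00472). Bcl6, a transcriptional repressor, fell from 48.8 and 47.2 CPM to 11.4 and 20.3 CPM (-1.46, adjusted p = 0.0105). None of the 25 tested in CA1 or the 24 in oligodendrocytes was called, with a median change of -0.03 and 0.47. In oligodendrocyte precursors Hif3a, a hypoxia-pathway regulator, rose from 10.9 and 9.58 CPM to 100.5 and 66.5 CPM (3.12, SE 0.34, adjusted p = 0.00921), the 1 gene called of 10513 in that class (0.00951%).

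All 14 clock genes beside Per1 were tested in DG, of which Ciart, a repressor of the clock, rose (2.99 and 4.12 CPM in WT, 16.5 and 7.42 CPM in KI, 1.90, adjusted p = 0.0329), as did Bhlhe41 (0.84, adjusted p = 0.0446), and Hlf, an output factor, fell (114.4 and 107.6 CPM against 40.0 and 59.3 CPM, -1.03, adjusted p = 0.0119). These 3 of 14 stand beside the 10.1% of all genes called in DG. In CA1 2 of the 14 fell, Bhlhe40 (-0.87, adjusted p = 0.0401) and the activator Arntl (-0.60, adjusted p = 0.0455), where 0.938% of all genes did. In CA3 1 of the 14 was called, Arntl again (-0.78, adjusted p = 0.0344), where 1.85% of all genes were. KI replicate 1 was the highest library for 8 of the 14 clock genes in DG and KI replicate 2 for 3. The share of all genes was not taken for these counts, so they are a description.

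Per1 and Sgk1 are also induced by neuronal activity, so 8 immediate early genes were read beside them. In CA1 all 8 were tested and 3 fell, where 0.938% of all genes did: Arc, from 16.8 and 18.6 CPM to 2.65 and 3.41 CPM (-2.49, adjusted p = 0.00769), Fos, from 4.10 and 5.52 CPM to 0.66 and 0.41 CPM (-3.06, adjusted p = 0.0218), and Egr1, from 16.0 and 16.1 CPM to 3.69 and 2.38 CPM (-2.33, adjusted p = 0.0154). Arc also fell in DG (-1.92, adjusted p = 0.0266), in CA3 (-1.74, adjusted p = 0.0299) and over all nuclei (-2.23, adjusted p = 0.0388). The median of the list was -1.95 in CA1 and -0.97 in DG. The part of these genes' levels in the Sgk1 and Per1 values was not tested. The lists read beside Cdkn1a, Ddit4 and Pdk4 hold 8 p53 targets, 8 integrated stress response genes and 8 PPAR-alpha targets. Of those with enough counts, 6, 5 and 4 were tested in DG, 5, 5 and 4 in CA1, 7, 5 and 5 in oligodendrocytes and 8, 8 and 6 over all nuclei. None of these tested genes was called by edgeR, and 3 of these fits had an unadjusted p under 0.05, a smaller share than the 11.4% to 28.2% of all genes at that p in these 4 groups of nuclei.

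The genes whose level over the 12 classes was most like that of each member were ranked by Pearson's r of log2(CPM + 1) among 13755 genes. The 12 points share their 4 libraries, so r is a description. Tsc22d3 was nearest to Selenop, a selenium carrier (r = 0.985), Trp53bp2 (0.978) and Glul, the astrocyte glutamine synthetase (0.975). Per1 was nearest to Tsc22d3 itself (0.965), with Selenop (0.958) and Ndufs8 (0.958) next. Cdkn1a was nearest to Cryab (0.977), Ppfibp2 (0.968) and Pim3 (0.967). Pdk4 followed Selenok (0.970), Tmem229a (0.967) and Arfgap2 (0.949), and Ddit4 followed Dclre1b (0.962), Ppp2ca (0.958) and Trmt112 (0.943).

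Fkbp5 was nearest to Gtpbp1 (0.967), Irak4, a kinase of innate immune signalling (0.961), and Ube2l3 (0.940), all highest in microglia. Sgk1 was nearest to Vps8 (0.921), Nkain1 (0.920) and Elovl7 (0.912), all highest in oligodendrocytes, as were Npat (0.858), Secisbp2l (0.854) and Efnb3 (0.854), which were nearest to Zbtb16. For the receptors the likeness was looser. Nr3c2 was nearest to 1500035N22Rik (0.917), Wipf3 (0.910) and Galnt17 (0.908), which peaked in CA3 or DG, and Nr3c1 to Ndufs8 (0.873), Snw1 (0.871) and Pik3r1 (0.858).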

How the data were processed

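Single-nucleus RNA libraries (10x 3' v3) of the hippocampi of 4 mice were analysed, 2 WT and 2 KI. The deposited values are UMI counts per gene and barcode, which the authors made with Cell Ranger 7.0.1 and mm10, per the file headers and the submitters' processing notes. The counts were filtered and gated with Python 3.11.15 and scanpy 1.11.5: at least 500 genes and at most 5% mitochondrial UMIs per nucleus, a class from marker genes (at least 3 seen, score at least 0.4), and no second class at 0.4 or more of the top score. The gating rule was tuned on markers and clusters. No doublet caller was run, and the exclusion of nuclei with a second class stood in for one. A nucleus was counted in 1 class. CPM is a class's UMIs over its total UMIs in a library.

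Counts were summed per mouse and class and tested with edgeR 4.0.16 (R 4.3.3, TMM, low-count filter, quasi-likelihood test), and p-values were adjusted by Benjamini-Hochberg across the genes of a class, with a threshold of 0.05. The study's methods tested single nuclei; here the mouse was the unit. Each class was also tested against the mean of the others in 1 model over all classes, and the difference of KI changes between classes as an interaction. The test was checked on simulated counts. Alternatives were other scalings, no filter, DESeq2 1.42.0, a replicate block, libraries left out, class sums thinned to equal depth, a minimum of 1000 genes, nuclei with a second class kept, and Leiden clusters. Same-numbered mice did not pair (correlations of their deviations between -0.17 and 0.19 over the classes). For shares of nuclei with a UMI, each nucleus was thinned to 1000 UMIs. Intervals on shares of nuclei cover counting error only.

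The members and lists were chosen with earlier results of these data known. All members are named, with the 3 genes most like each in level over the classes, and list genes past the threshold.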

Additional observations from a re-analysis of the deposited data

Results flagged for a closer look

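Of the members' changes with genotype, 8 differed between a pair of cell classes by an interaction test in edgeR (adjusted p under 0.05). Between DG granule and CA1 neurons they were Nr3c2 (a difference of KI changes of -0.66 on the log2 scale), Fkbp5 (-0.53), Sgk1 (0.72) and Per1 (1.20). Between CA1 and CA3 neurons they were Fkbp5 (0.47) and Per1 (-0.91), and between DG granule neurons and oligodendrocytes Fkbp5 (-1.14) and Zbtb16 (-1.27). The Per1 difference between DG and CA1 kept its call in 6 of 6 alternatives, and the other 7 lost theirs when either WT mouse was left out. In addition, Fkbp5 between CA1 and CA3 lost its call without KI replicate 2 and Per1 between CA1 and CA3 without KI replicate 1, and Fkbp5 and Zbtb16 between DG and oligodendrocytes lost theirs with nuclei of a second class kept. The levels behind Per1, Fkbp5 and Zbtb16 differed between the 2 KI mice, as given above.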

How the results depend on the processing

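The 5 member calls of KI against WT became 21 with no low-count filter, 9 with DESeq2, 10 with classes from clusters, 17 with the replicate block, and 5 to 38 when a mouse was left out (30 without KI replicate 1, 38 without KI replicate 2). The lone mouse is then assumed to vary like the others. Same-numbered samples share only a number, with 2 pairs and no label behind it. A crossed pairing, added after seeing the data, gave 12. With the block the DG changes were -1.21 for Nr3c2, -0.78 for Nr3c1, 1.02 for Sgk1 and 1.94 for Cdkn1a, and Nr3c1 in CA1 was -0.95, all called. The 61 class contrasts stayed between 48 and 70, and the 8 differences between classes ranged from 1 to 16 when a mouse was left out. Reversed were Zbtb16 in microglia against the other classes with nuclei of a second class kept (0.074), Pdk4 in microglia with clusters (-0.65), and Per1 in KI against WT without KI replicate 1, with a range over the mice left out of -0.27 to 1.26 over all nuclei and of -0.055 to 2.03 in oligodendrocytes. Of all genes, 1580 were called in DG, 3325 with no filter, 2417 with the block and 708 to 6671 with a mouse left out. In CA1 401 were called, 228 without scaling, 0 with no filter, 741 with DESeq2, 1873 with the block, 917 with the crossed pairing, 1274 with clusters and 0 to 4707 with a mouse left out. Over all nuclei 169 were called, 669 with no filter, 1878 with DESeq2, 1522 with the block, 670 with the crossed pairing and 98 to 7513 with a mouse left out. Of the counts of 0 in CA1 by edgeR, 3844 genes had an unadjusted p under 0.05 with no filter and 1399 without WT replicate 1. Causes were not tested. Few UMIs lie behind Cdkn1a (8 to 32 per library in DG) and Pdk4 (3 to 18 in all in the larger neuronal classes).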
